A study of Mus musculus with 43 samples.

Results

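The genes described here are 8 mediators of inflammasome signalling and lytic cell death: the sensors Nlrp3 and Nlrp10, the adaptor Pycard (ASC), the inflammatory caspases Casp1 and Casp4, the cytokine Il18, and the necroptosis pair Ripk3 and Mlkl. They were taken by name from a table of 23256 genes. All 8 were in the table and all 8 were among the 19170 genes that passed the filter on low values and were tested.

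The series measured poly-A RNA of mouse back skin, in 43 libraries from 3 strains under 3 UVB regimens. The mice were females aged 10 to 13 weeks. They received no UVB, a single acute dose of 300 mJ/cm2, or a chronic course of 100 mJ/cm2 a day for 5 days, and skin was taken 24 hours after the last dose. The series title names the strain NZM2328, a lupus-prone mouse, and sets the study around type I interferon. What iNZM and WT stand for is not spelled out in the labels. Every group held 5 libraries, except the unexposed iNZM and unexposed WT groups with 4 each. The labels do not say that each library came from a separate animal, so the p-values measure the spread between these libraries, which may be technical. Libraries are called here by strain, regimen and the sample number of their title.

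Inflammasome sensors of the NLR family assemble with the adaptor ASC, which recruits and activates caspase 1. Active caspase 1 cleaves pro-interleukin 18 and pro-interleukin 1 beta and opens gasdermin D pores, while mouse caspase 4 (also called caspase 11) cleaves gasdermin D in response to cytosolic lipopolysaccharide. Necroptosis is a separate lytic death in which RIPK3 phosphorylates MLKL, which then disrupts the plasma membrane. In skin, keratinocytes store pro-interleukin 18, and Nlrp10, an NLR protein without leucine-rich repeats, is known from keratinocytes.

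The recovered reads per library ranged from 18.5 M to 37.8 M, with a median of 24.4 M (M, 1e6 reads). Ifnar1, a gene of the receptor for type I interferons, had 878 ± 126 normalised reads in NZM (SD, n = 15), 420 ± 85.5 in iNZM (n = 14) and 947 ± 189 in WT (n = 14). Its highest iNZM value was 579 and its lowest NZM value 716. In 9 exposed NZM and iNZM libraries, a score over 13 hair follicle genes was far above that of the other 34 libraries. They are NZM acute UVB 5, iNZM acute UVB 6 and 49, NZM chronic UVB 17, 55 and 56, and iNZM chronic UVB 22, 24 and 25. Results that change with these libraries are also given without them. That fit keeps only NZM 54 and 18 and iNZM 57 and 23 of the chronic NZM and iNZM libraries. Groups that hold none of these 9 keep their differences in that fit. Their p-values can still move, because the spread of each gene is estimated over all groups.

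Values are normalised read counts, and differences are log2 differences of value + 1 with their standard error (SE), tested with limma over all 43 libraries and adjusted by Benjamini-Hochberg over all tested genes. A difference is called at an adjusted p under 0.05. Compared per kilobase of exon, Il18 was the most abundant of the 8 transcripts in unexposed NZM skin, with 1231 ± 223 normalised reads per kilobase (SD, n = 5). Nlrp10 followed with 647 ± 235 and Casp1 with 352 ± 63.3. Casp4 had 105 ± 29.2 and Pycard 103 ± 11.4 per kilobase, which did not differ beyond their spread by this measure. The length used counts every base in any annotated exon of a gene. For Pycard this was 3800 bases of a locus from 127989708 to 127993867. A gene whose main transcript is shorter than the length used is understated, so the order of the 8 depends on these lengths. Ripk3 had 68.0 ± 14.6, Mlkl 35.2 ± 8.64 and Nlrp3 2.77 ± 1.44. Nlrp3 was thus close to the detection limit in unexposed skin, and 1 unexposed WT library (41) and 1 iNZM chronic library (23) held no read of it.

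Across the 9 groups, Nlrp10 spanned the widest range. Its mean was 19.2 times higher in unexposed iNZM skin than in acutely exposed WT skin. Il18 spanned 16.0-fold, Nlrp3 14.1-fold and Pycard 4.36-fold between their highest and lowest group means. Mlkl spanned 3.78-fold, Ripk3 3.63-fold, Casp4 3.57-fold and Casp1 1.80-fold. When the 9 groups were ordered by mean, most neighbours in that order overlapped. Of the 8 steps between neighbours, the difference of means exceeded the larger SD at 3 for Nlrp10, at 2 each for Il18 and Pycard, at 1 each for Casp4 and Ripk3, and at none for Casp1, Mlkl and Nlrp3. Groups separated completely at 2 steps only: Pycard in chronic WT skin stood above unexposed iNZM skin, and Il18 in unexposed iNZM skin stood above unexposed WT skin.

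**Figure D1:**
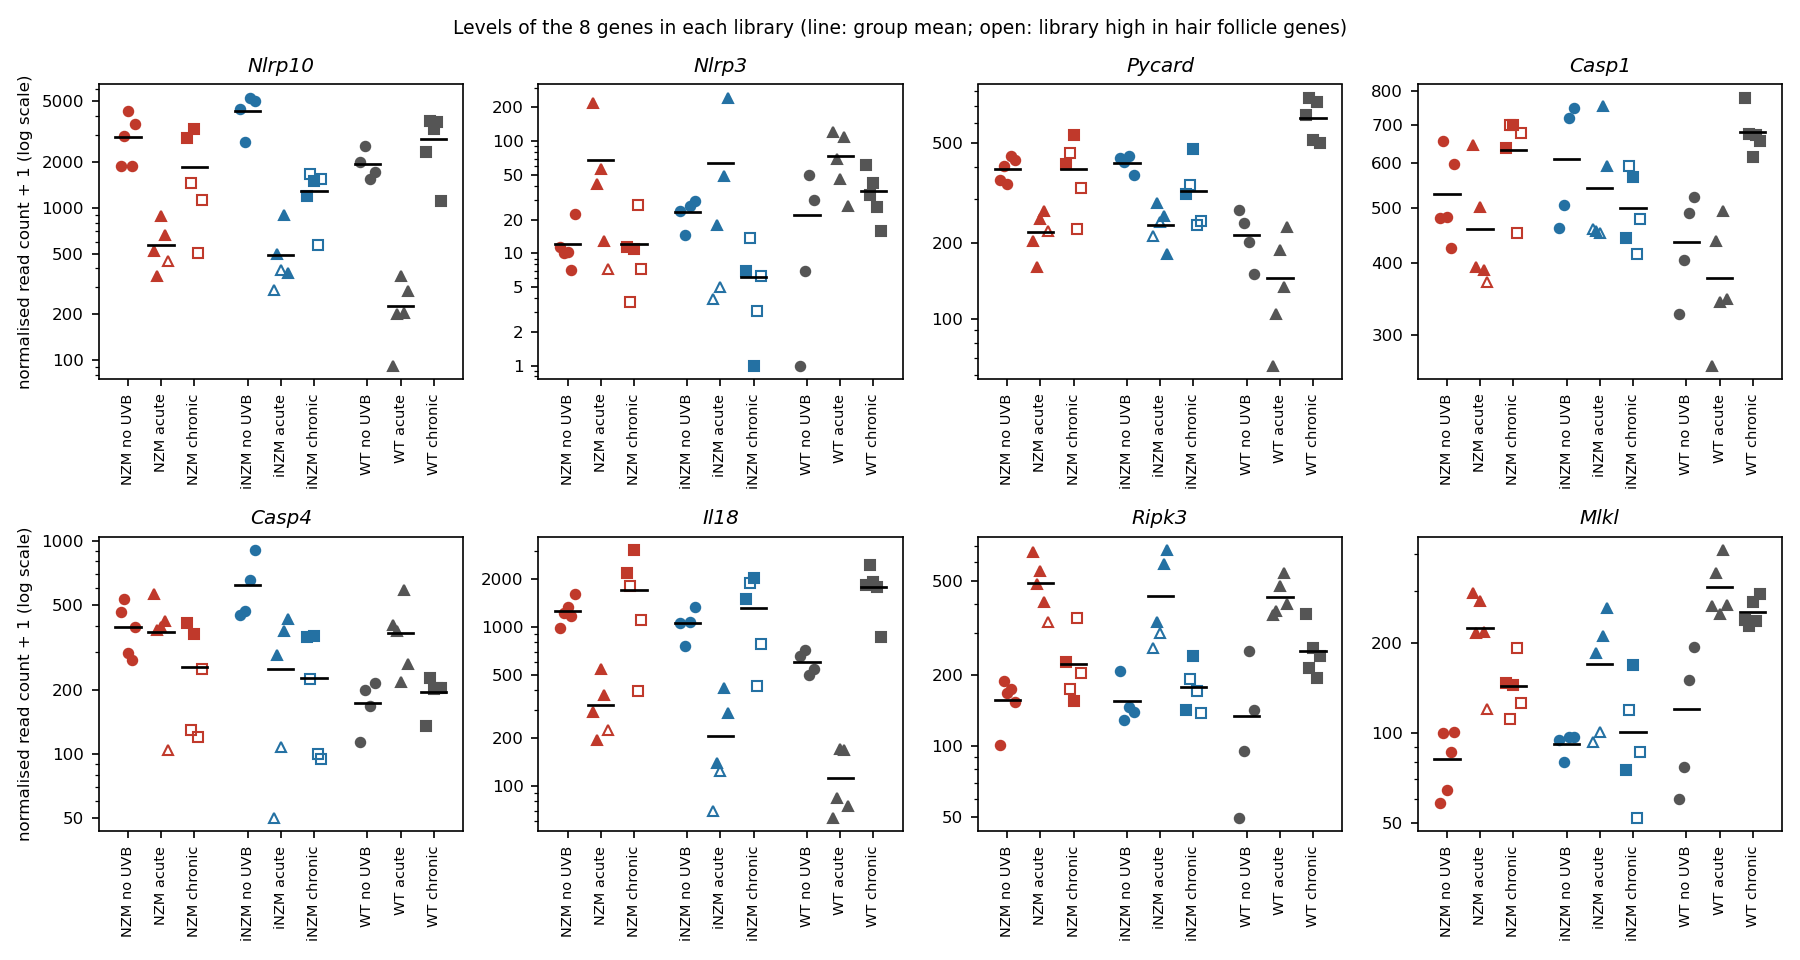
Normalised read count + 1 on a log scale for each of the 8 genes, 1 point per library in the 9 groups (circles no UVB, triangles acute, squares chronic; red NZM, blue iNZM, grey WT), with the group mean of the counts, + 1, as a line. Open symbols are the 9 libraries high in hair follicle genes; acute UVB lowered Nlrp10 and Il18 and raised Ripk3 in all 3 strains, and Casp4 was low in most of the open symbols.

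After acute UVB some of the 8 genes fell and others rose. In all 3 strains Nlrp10 fell (5.06- to 9.31-fold), Il18 fell (4.13- to 6.10-fold) and Ripk3 rose (2.62- to 3.71-fold), without overlap between exposed and unexposed libraries. In bulk skin, fewer cells of a type and less RNA per cell cannot be told apart. The test called 5 of the 8 genes in NZM against 21.4% of all tested genes, with 2 higher (10.6% of all genes) and 3 lower (10.7%). In iNZM it called 5 against 25.2%, with 1 higher (12.8%) and 4 lower (12.4%), and in WT 5 against 21.7%, with 3 higher (10.4%) and 2 lower (11.3%). Exposed and unexposed libraries did not overlap for 5 of the 8 genes in each strain, against 19.3% of all genes in NZM, 21.1% in iNZM and 21.8% in WT. Acute and chronic comparisons within a strain share the unexposed libraries.

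Nlrp10 (ENSMUSG00000049709.4; chromosome 7, 108921852 to 108930178, minus strand, GRCm38) held 1891, 2943, 4313, 1882 and 3547 normalised reads in the 5 unexposed NZM libraries and 520, 356, 883, 662 and 443 after acute UVB. In WT it held 2003, 2537, 1534 and 1725 unexposed and 91.1, 199.5, 354, 204 and 285 after acute UVB. Each exposed library lay below every unexposed library of its strain. The log2 difference was -2.34 ± 0.41 in NZM (adjusted p = 5.93e-05), -3.22 ± 0.43 in iNZM (1.33e-06) and -3.21 ± 0.43 in WT (7.34e-07). The larger fall in WT than in NZM was not called as a difference of responses (0.87 ± 0.59, adjusted p = 0.643).

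Il18 (ENSMUSG00000039217.13; chromosome 9, 50554827 to 50581840, plus strand), the cytokine that caspase 1 matures, followed the same course. It held 989, 1229, 1347, 1173 and 1608 normalised reads in unexposed NZM skin and 292, 193, 540, 374 and 223 after acute UVB. In WT it held 655, 718, 495 and 543 unexposed and 61.9, 83.3, 171, 167 and 73.4 after the dose. The groups did not overlap in any of the 3 strains, and the log2 difference was -2.05 ± 0.45 in NZM (adjusted p = 0.00093), -2.61 ± 0.47 in iNZM (0.000103) and -2.54 ± 0.47 in WT (0.000107). The annotation places Bco2 and Tex12 on the opposite strand over parts of Il18. Both averaged little (24.3 and 2.09 normalised reads), and strand use in counting is not given in the sources used here.

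Ripk3 (ENSMUSG00000022221.14; chromosome 14, 55784995 to 55788865, minus strand), the necroptosis kinase, rose. Unexposed NZM libraries held 100.4, 187, 166, 174 and 152 normalised reads, and acutely exposed libraries 659, 482, 548, 406 and 332. Unexposed WT libraries held 48.7, 94.0, 249.9 and 141, and exposed ones 358, 372, 474, 536 and 395. No exposed library overlapped the unexposed ones in any strain. The log2 difference was 1.62 ± 0.29 in NZM (adjusted p = 0.000101), 1.39 ± 0.31 in iNZM (0.00115) and 1.89 ± 0.31 in WT (2e-05).

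Mlkl (ENSMUSG00000012519.14; chromosome 8, 111311797 to 111338177, minus strand), the membrane-disrupting effector that RIPK3 phosphorylates, rose in NZM and WT. NZM libraries held 57.2, 99.4, 63.6, 85.5 and 99.9 normalised reads unexposed and 295, 216, 276, 218 and 119 after acute UVB. The log2 difference was 1.43 ± 0.30 in NZM (adjusted p = 0.000569) and 1.48 ± 0.32 in WT (0.000576). In iNZM the exposed libraries held 92.5, 184, 100.04, 209.9 and 262 against 93.7, 78.8, 95.7 and 95.9 unexposed, and the difference of 0.78 ± 0.32 was not called (0.0665). The lower pair of exposed libraries are numbers 6 and 49, which were high in hair follicle genes. Without the hair-high libraries the iNZM difference was 1.24 (adjusted p = 0.00277), and edgeR (0.0362) and DESeq2 (0.0197) called it with all libraries.

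Ripk3 and Mlkl varied together over the libraries. The Pearson correlation of their log2 values over the 43 libraries was 0.78, and 0.74 for deviations from group means, which removes the differences between groups. These points share library preparation and normalisation. As the necroptosis pair that moved together, they are shown with the 250 bases upstream of their RefSeq start sites (GRCm38.p6, gene strand, 5′ to 3′). Il18 and Casp4 are shown in the same way. Il18 fell after acute UVB but rose, as the pair did, in chronic WT skin, and the acute differences of Casp4 were of either sign. Capitals mark matches to the motifs searched. The windows are chr14:55788858-55789107 (minus strand), chr8:111338206-111338455 (minus strand), chr9:50554450-50554699 (plus strand) and chr9:5308599-5308848 (plus strand).
Ripk3: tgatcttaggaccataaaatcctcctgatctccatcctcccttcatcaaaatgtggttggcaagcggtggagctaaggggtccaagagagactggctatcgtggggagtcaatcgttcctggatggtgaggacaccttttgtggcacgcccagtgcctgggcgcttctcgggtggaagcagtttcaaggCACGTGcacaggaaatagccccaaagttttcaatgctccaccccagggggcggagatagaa
Mlkl: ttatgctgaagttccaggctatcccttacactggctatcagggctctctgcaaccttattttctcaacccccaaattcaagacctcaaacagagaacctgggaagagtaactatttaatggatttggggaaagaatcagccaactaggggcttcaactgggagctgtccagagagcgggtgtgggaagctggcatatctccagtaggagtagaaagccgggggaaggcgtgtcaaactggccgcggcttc
Il18: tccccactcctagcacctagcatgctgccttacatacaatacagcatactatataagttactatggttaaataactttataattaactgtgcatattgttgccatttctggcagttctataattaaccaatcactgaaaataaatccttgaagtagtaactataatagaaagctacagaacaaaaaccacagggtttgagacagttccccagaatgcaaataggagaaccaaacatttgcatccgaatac
Casp4: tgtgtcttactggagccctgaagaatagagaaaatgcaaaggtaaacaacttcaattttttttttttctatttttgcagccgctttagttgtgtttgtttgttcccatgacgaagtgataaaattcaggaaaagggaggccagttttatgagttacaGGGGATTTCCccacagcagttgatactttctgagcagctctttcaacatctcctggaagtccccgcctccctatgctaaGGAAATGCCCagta
On both strands of each window, an interferon-stimulated response element (GAAA, any pair of bases, GAAA), a STAT site (TTCNNNGAA), an NF-kB site (GGG, any pair of bases, TTTCC), an AP-1 site (TGANTCA) and an E-box (CACGTG) were searched. Promoters were found in the table for 7 of the 8 genes, all but Nlrp10. Casp4 held 2 NF-kB matches, at -93 to -84 and -14 to -5 from its start, a motif found in 1.41% of the 32851 promoters of this length. Ripk3 held an E-box at -61 to -56 and Casp1 another at -137 to -132, against 6.02% of all promoters. The interferon-stimulated response element (2.98% of all promoters), the STAT site (7.02%) and the AP-1 site (6.75%) were in none of the 7 windows. No motif matches overlapped. A match describes these letters only and is not evidence of binding.

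Pycard (ENSMUSG00000030793.4; chromosome 7, 127989708 to 127993867, minus strand), the adaptor that links sensors to caspase 1, fell in NZM and iNZM. Unexposed NZM libraries held 354, 403, 342, 441 and 425 normalised reads, and acutely exposed ones 202, 160, 248, 267 and 223. The groups did not overlap, and the log2 difference was -0.85 ± 0.24 (adjusted p = 0.00985). In iNZM it was -0.83 ± 0.26 (0.0149). In WT, libraries held 269, 238, 201 and 150 unexposed and 64.3, 104, 187, 132 and 232 exposed. These overlapped, and the difference of -0.68 ± 0.26 was not called (0.0539). It was called without WT acute UVB 13 (-0.80, 0.0271) or 15 (-0.88, 0.0108), without unexposed WT 45 (-0.84, 0.03), with the filter at 50 (0.047) and without the hair-high libraries (0.0419). No WT library is hair-high, so that last fit left the WT difference unchanged and moved only the shared estimate of spread.

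Nlrp3 (ENSMUSG00000032691.14; chromosome 11, 59541568 to 59566956, plus strand), the sensor of membrane and ion disturbance, was low and scattered. Acutely exposed libraries held 219.6, 40.9, 55.8, 11.9 and 6.25 normalised reads in NZM, 2.89, 16.7, 4.04, 48.4 and 242 in iNZM, and 119, 68.5, 44.6, 108 and 25.4 in WT. Unexposed NZM libraries held between 6.11 and 21.3, iNZM libraries between 13.6 and 28.2, and WT libraries 0, 5.93, 48.5 and 28.6. A single library, NZM acute UVB 1 or iNZM acute UVB 10, held most of the reads of its group. The WT difference of 2.68 ± 0.98 was called (adjusted p = 0.046). It was lost in 12 of 19 alternative analyses, among them edgeR (0.2), DESeq2 (0.145) and the fit without unexposed WT 41 (1.57, adjusted p = 0.29). The NZM difference of 1.60 ± 0.93 was not called (0.23), although edgeR (0.0456) and DESeq2 (0.0174) called it. In iNZM the difference was -0.11 ± 0.98 (0.947).

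Casp1 (ENSMUSG00000025888.5; chromosome 9, 5298517 to 5307265, plus strand), the protease at the centre of the inflammasome, was the steadiest of the 8. Its acute log2 differences were -0.21 ± 0.18 in NZM, -0.16 ± 0.19 in iNZM and -0.22 ± 0.19 in WT, none of them called. Its group means lay between 376 ± 89.4 in acutely exposed WT skin (SD, n = 5) and 678 ± 61.4 in chronically exposed WT skin (n = 5).

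Casp4 (ENSMUSG00000033538.13; chromosome 9, 5308828 to 5336783, plus strand), the neighbour of Casp1 and the sensor of cytosolic lipopolysaccharide, had differences of either sign after acute UVB, and only that in iNZM was called. In iNZM it held 449, 470, 654 and 903 normalised reads unexposed and 49.1, 289, 107, 375 and 428 after acute UVB, a log2 difference of -1.64 ± 0.50 (adjusted p = 0.0142). In WT it held 113, 198, 168 and 215 unexposed and 402, 377, 215, 587 and 263 exposed. Each exposed WT library was above every unexposed one, though the nearest pair was 215.4 against 215.3, and the difference of 1.04 ± 0.50 was not called (0.142), but it was when only the compared groups were fitted (0.04) and without the hair-high libraries (0.00208). The hair-high set holds no WT library, so leaving it out changed only the shared estimate of spread. In NZM the difference was -0.22 ± 0.47 (0.786). The iNZM call was lost without the hair-high libraries (-0.72, adjusted p = 0.0711), without iNZM acute UVB 6 (-1.16, 0.08), without unexposed iNZM 40 (-1.44, 0.06), and when only the compared groups were fitted (0.102).

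**Figure D2:**
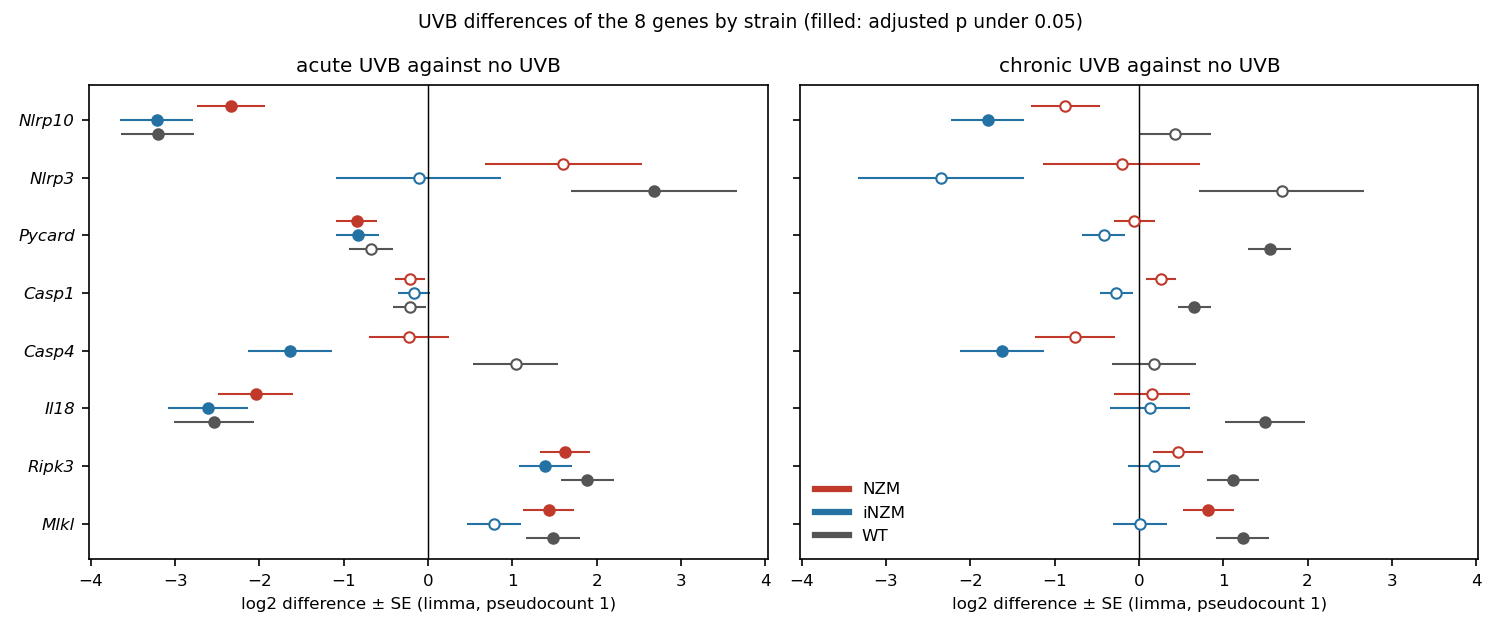
Log2 difference ± SE (limma on value + 1) of each gene between exposed and unexposed skin, for acute UVB (left) and chronic UVB (right), in NZM (red), iNZM (blue) and WT (grey); filled points have an adjusted p under 0.05. Acute differences of all genes but Nlrp3 and Casp4 lay on the same side of 0 in the 3 strains, and those of Nlrp10, Il18 and Ripk3 were called in each. Of the chronic calls 5 of 8 were in WT, all of them higher.

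After chronic UVB most calls were in WT skin, where Pycard, Casp1, Il18, Ripk3 and Mlkl rose. In WT skin, 5 of the 8 genes were called against 35.3% of all genes, all 5 higher (18.4% of all genes) and 0 lower (16.8%). In NZM 1 was called against 19%, with 1 higher (9.2%) and 0 lower (9.78%). In iNZM 2 were called against 28.9%, with 0 higher (13.1%) and 2 lower (15.7%). Exposed and unexposed libraries did not overlap for 1 of the 8 genes in NZM (13.7% of all genes), 3 in iNZM (19.1%) and 4 in WT (28.9%). In WT, Il18 was thus below the unexposed level after acute UVB and above it after chronic UVB.

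Pycard in chronically exposed WT skin held 644, 753, 511, 729 and 499 normalised reads, against 269, 238, 201 and 150 unexposed. The groups were far apart, with a log2 difference of 1.55 ± 0.26 (adjusted p = 1.64e-05). In NZM, chronic libraries held 411, 455, 538, 226 and 330, around the unexposed range of 342 to 441, and the difference was -0.06 ± 0.24 (0.897), or 0.27 without the hair-high libraries (0.674). The chronic response of NZM minus that of WT was -1.61 ± 0.35 (adjusted p = 0.00567), and it stayed called in all 29 alternative analyses. It was the 1 member of 8 called in this test of the difference, against 7.58% of all genes.

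Il18 in chronically exposed WT skin held 1832, 2465, 1920, 1797 and 867 normalised reads, all above the unexposed maximum of 718 (log2 difference 1.495 ± 0.47, adjusted p = 0.0134). In NZM it held 2188, 1801, 3052, 395 and 1104, and in iNZM 1492, 1886, 2040, 427 and 780. These ranges reached both above and below the unexposed ones, and neither difference was called (0.15 ± 0.45 and 0.13 ± 0.47). The 4 libraries that were not hair-high, NZM 54 and 18 and iNZM 57 and 23, lay above the unexposed maxima of 1608 and 1336. The hair-high libraries included the lowest values (NZM 55, iNZM 24) and also high ones (NZM 17, iNZM 22). Without them the differences were 1.04 in NZM (adjusted p = 0.132) and 0.75 in iNZM (0.206), again not called. The difference of responses between NZM and WT was -1.34 ± 0.65 and was not called (0.199).

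Casp1 rose in WT by 0.66 ± 0.19 (adjusted p = 0.00764), from 325, 405, 490 and 521 normalised reads to 778, 672, 612, 671 and 654. All exposed libraries were above all unexposed ones. Ripk3 rose by 1.12 ± 0.31 (0.00543), from 48.7, 94.0, 249.9 and 141 to 359, 212, 258, 192 and 239. These groups overlapped through unexposed WT 44, and the Ripk3 call was lost without unexposed WT 41 (0.72, 0.0674) and when only the compared groups were fitted (0.0625). Mlkl rose by 1.23 ± 0.32 (0.00282), from 59.2, 76.2, 150 and 193 to 238, 228, 273, 237 and 292, without overlap.

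In NZM, Mlkl was the only 1 of the 8 called after chronic UVB, at 0.82 ± 0.30 (adjusted p = 0.0486). Its libraries held 146, 110, 144, 191 and 125 normalised reads against 57.2 to 99.9 unexposed, without overlap. The call was lost in 14 of 20 alternatives, with adjusted p up to 0.133 without NZM chronic UVB 55. Nlrp10 held 2859, 1446, 3307, 507 and 1126 in these libraries, and its difference of -0.87 ± 0.41 was not called. The 3 lowest of those 5 values were in hair-high libraries, without which the difference was 0.16. Without NZM chronic UVB 18 it was called (-1.15, adjusted p = 0.0413).

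In iNZM, Nlrp10 fell after chronic UVB from 4440, 2700, 5262 and 4986 to 1201, 1670, 1502, 572 and 1536 normalised reads, by 1.79 ± 0.43 on the log2 scale (adjusted p = 0.00312), without overlap. Without the hair-high libraries, which leaves iNZM chronic UVB 57 and 23, it kept its call. Casp4 fell by 1.63 ± 0.50 (0.016), to 352, 223, 359, 98.8 and 93.2. That call was lost without the hair-high libraries (-0.74, 0.104), without iNZM chronic UVB 24 (-1.39, 0.058) and without unexposed iNZM 40 (-1.42, 0.061). Nlrp3 held 0 to 12.8 normalised reads in these libraries, and its difference of -2.34 ± 0.98 was not called (0.0679), although these values lay below all 4 unexposed ones. Without the hair-high libraries it was called (-3.11, adjusted p = 0.0463). That call rests on iNZM chronic UVB 57 and 23 alone, at 5.94 and 0 normalised reads.

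Set against each other over the mean of the 3 strains, chronic and acute skin differed in 7 of the 8 genes, against 44.6% of all genes. Chronic skin held more Il18 (2.99 ± 0.26, adjusted p = 2.04e-11), Nlrp10 (2.18 ± 0.24, 2.82e-09), Pycard (1.14 ± 0.14, 3.25e-08) and Casp1 (0.42 ± 0.10, 0.00151). It held less Nlrp3 (-1.68 ± 0.54, 0.0107), Ripk3 (-1.05 ± 0.17, 5.7e-06) and Mlkl (-0.54 ± 0.17, 0.0106). These 7 calls held in all 40 alternatives run. By strain, mean Il18 was 5.26 times higher after chronic than after acute UVB in NZM, 6.43 times in iNZM and 16.0 times in WT. Chronic and acute ranges of Il18 overlapped in NZM and were separate in iNZM and WT. Mean Casp1 was 1.38 times higher after chronic than after acute UVB in NZM and 1.80 times in WT, but 0.920 times the acute mean in iNZM. Mean Ripk3 was 2.20, 2.45 and 1.69 times higher after acute UVB in NZM, iNZM and WT. The regimens differ in dose per exposure, number of exposures and time since the first dose, which cannot be told apart.

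Between strains, unexposed NZM skin held more Pycard than unexposed WT skin. The libraries held 354, 403, 342, 441 and 425 against 269, 238, 201 and 150 normalised reads, a log2 difference of 0.89 ± 0.26 (adjusted p = 0.014), and 15% of all genes were called (7.47% higher in NZM). The call was lost without unexposed WT 45 (0.73, 0.0927). Casp4 and Il18 also did not overlap between these groups (1.17 ± 0.50 and 1.07 ± 0.47), which makes 3 of 8 against 19.9% of all genes, but were not called (0.114 and 0.128). Both were called when only the compared groups were fitted (0.0103 and 0.00169) and without the hair-high libraries (0.0012 and 0.0174). Neither group holds a hair-high library, so the differences stayed the same and only the shared estimate of spread moved.

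After acute UVB, 3 of the 8 were higher in NZM than in WT, against 13% of all genes called, with 7.96% of all genes higher in NZM. Il18 was higher by 1.57 ± 0.45 (adjusted p = 0.0148) and Nlrp10 by 1.40 ± 0.41 (0.0175), both without overlap, as for 12.7% of all genes. The gap between the groups was narrow for Nlrp10, whose lowest NZM value was 356 and whose highest WT value was 354. Pycard was higher by 0.72 ± 0.24 (0.0405), and its ranges overlapped. Without NZM acute UVB 3 these differences were 1.36 (0.0592) for Il18, 1.22 (0.0643) for Nlrp10 and 0.67 (0.0935) for Pycard. Without WT acute UVB 50 they were 1.39 (0.0601), 1.10 (0.0947) and 0.47 (0.223). All 3 calls were thus lost without either library, and the Pycard call was lost in 11 of 20 alternatives.

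After chronic UVB, limma called none of the 8 between NZM and WT, where it called 7.88% of all genes. At an unadjusted p under 0.05 there were 2, Pycard (-0.72 ± 0.24, adjusted p = 0.0601) and Mlkl (-0.84 ± 0.30, 0.0786), both lower in NZM. DESeq2 called both (0.0378 and 0.048) and edgeR neither. Mlkl was also called when only the compared groups were fitted (0.0175), and Pycard without NZM chronic UVB 18 (-0.84, 0.0276). The Mlkl ranges, 110 to 191 in NZM and 228 to 292 in WT, were separate, as for 6.84% of all genes.

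Between iNZM and NZM, limma called none of the 8 at any regimen. It called 0.0313% of all genes without UVB, 0.224% after acute and 0.428% after chronic UVB. At an unadjusted p under 0.05 the numbers were 0, 0 and 1, the last being Mlkl (-0.61 ± 0.30, adjusted p = 0.488), and edgeR and DESeq2 called 0 at each. By contrast, 24 type I interferon-stimulated genes measured in the same fit were lower in iNZM for 4, 16 and 16 genes. Their median log2 differences were -1.60, -2.94 and -2.18, with all-gene medians near 0. With only the compared groups fitted, limma called 16, 1 and 4 of all tested genes. Most acute and chronic calls of the 24 were therefore lost in that fit. No member's response was called as different between iNZM and NZM, for the acute (0.00522% of all genes called) or the chronic dose (0%). At an unadjusted p under 0.05 the acute test held 1 (Casp4, -1.42 ± 0.69, adjusted p = 0.787) and the chronic test 0, and edgeR and DESeq2 called 0 in both. For the acute response of NZM against WT, limma, edgeR and DESeq2 called none of the 8 and none had an unadjusted p under 0.05, against 0.115% of all genes called. A p that misses the threshold does not show that the responses are alike.

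Marker genes of skin cell types moved with several of the 8. The summed value of 5 suprabasal keratinocyte markers, all in the table, ranged from 277446 to 548392 in unexposed NZM libraries and from 49654 to 199956 after acute UVB. In WT it went from 186266 to 348335 unexposed to 21162 to 70646 after acute UVB and 338481 to 1526510 after chronic UVB. Over the 43 libraries, the Pearson correlation of log2 values with this sum was 0.93 for Il18 and 0.88 for Nlrp10, and 0.84 and 0.83 for deviations from group means. Pycard correlated about as much with this suprabasal sum (0.80, and 0.58 for deviations) as with the sum of 4 basal keratinocyte markers (0.82 and 0.60). Il18 and Nlrp10 also correlated with the basal sum (0.70 and 0.68). That sum ranged in WT from 138947 to 263233 unexposed and 374503 to 524845 after chronic UVB, and in NZM from 301952 to 615636 and 199123 to 362989. These points share library, depth and normalisation, and the part of epidermal content in the results was not tested. Libraries departed from that relation, as iNZM chronic UVB 57 with 1492 normalised reads of Il18 at a suprabasal sum of 60280. WT chronic UVB 59, at 338481, held 1107 of Nlrp10, below every unexposed library.

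**Figure D3:**
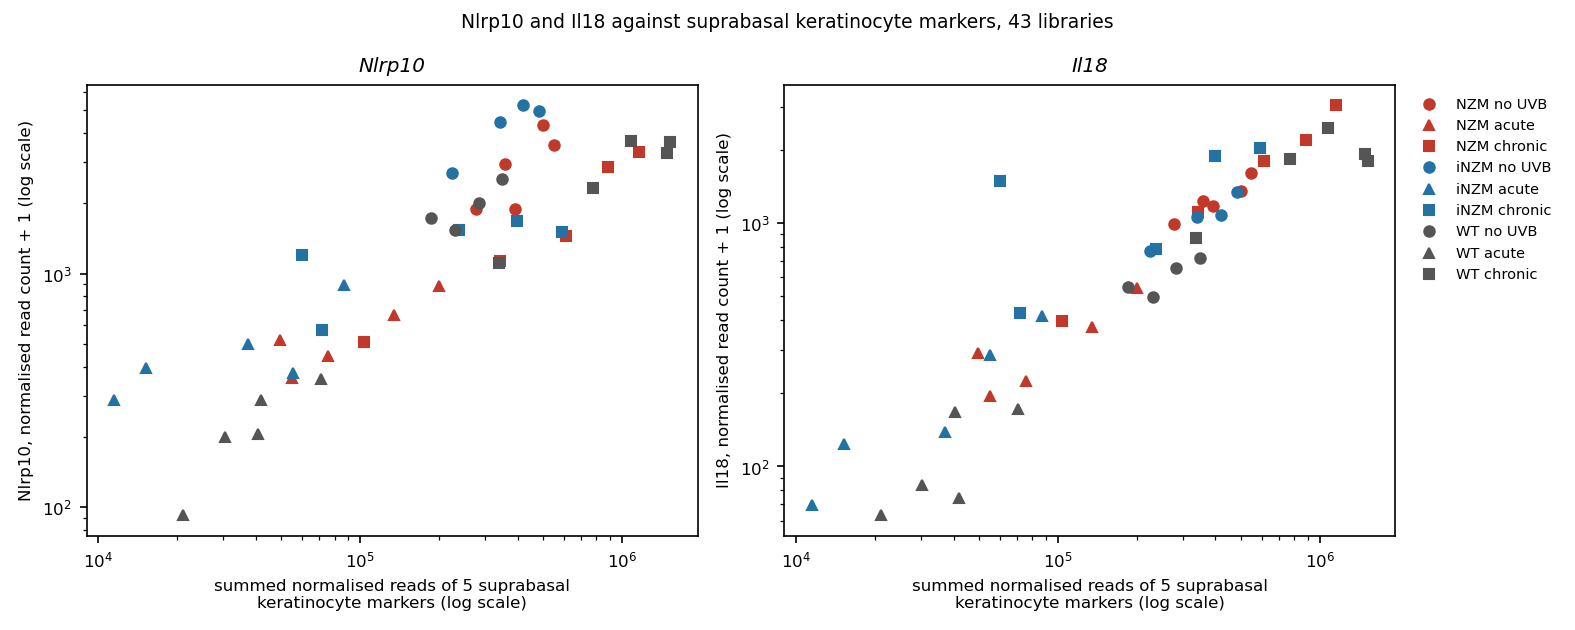
Nlrp10 (left) and Il18 (right), normalised read count + 1, against the summed normalised reads of 5 suprabasal keratinocyte markers, 1 point per library, both axes on a log scale (circles no UVB, triangles acute, squares chronic; red NZM, blue iNZM, grey WT). Acutely exposed libraries sit at the lower left of both panels, the highest suprabasal sums are in chronic WT libraries, and the highest Nlrp10 values are in unexposed iNZM libraries; the correlation of log2 values over 43 libraries was 0.88 for Nlrp10 and 0.93 for Il18.

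Levels of Nlrp3, Mlkl and Casp4 were correlated with leukocyte markers. The correlation with the sum of 5 pan leukocyte markers was 0.71 for Nlrp3, 0.51 for Mlkl and 0.65 for Casp4, and 0.72, 0.78 and 0.78 for deviations from group means. That sum ranged from 1758 to 3226 in unexposed NZM skin, from 977 to 5366 after acute and from 853 to 4090 after chronic UVB. In iNZM it ranged from 3542 to 4828 unexposed, 379 to 8147 after acute and 286 to 1117 after chronic UVB. In WT it ranged from 1987 to 8577 unexposed, 2099 to 9752 after acute and 1341 to 3804 after chronic UVB. In WT, Mlkl rose after both regimens, and the leukocyte sums of exposed and unexposed libraries overlapped. Unexposed WT 44 and 45 (6702 and 8577) widen the unexposed range. Over the 43 libraries, Ripk3 correlated most with the sum of the 6 measured of 7 neutrophil markers (0.77), but less for deviations (0.47). For deviations its correlation was higher with the T cell (0.66), monocyte (0.63) and pan leukocyte (0.62) sums. The neutrophil sum ranged from 572 to 1505 in unexposed NZM libraries and from 5112 to 24644 after acute UVB. In WT it ranged from 512 to 722 unexposed and 2185 to 7478 after acute UVB, and in iNZM from 1289 to 2214 and 1157 to 40737, which overlapped. The lowest of these, iNZM acute UVB 6, was below every unexposed iNZM library in neutrophil markers and above all of them in Ripk3, with 259 normalised reads. Ly6g, a defining neutrophil marker, was at 0 in every library of the 6 groups without acute exposure. The part of leukocyte content in these results was not tested.

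Casp4 stood apart in its relation to hair follicle genes, with a correlation of -0.69 with the follicle list over the 43 libraries and -0.83 for deviations from group means. In the 9 hair-high libraries it held 49.1 to 248.5 normalised reads, with a median of 107. In the other 11 exposed NZM and iNZM libraries it held 289 to 564, with a median of 379. The 2 sets did not overlap. The share of all genes separated in this way was not computed. Most hair-high libraries were chronic and most of the others acute, so the sets also differ in regimen. For Casp1, its neighbour on the chromosome, the same sets spanned 370 to 697 and 389 to 753 and overlapped almost wholly.

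**Figure D4:**
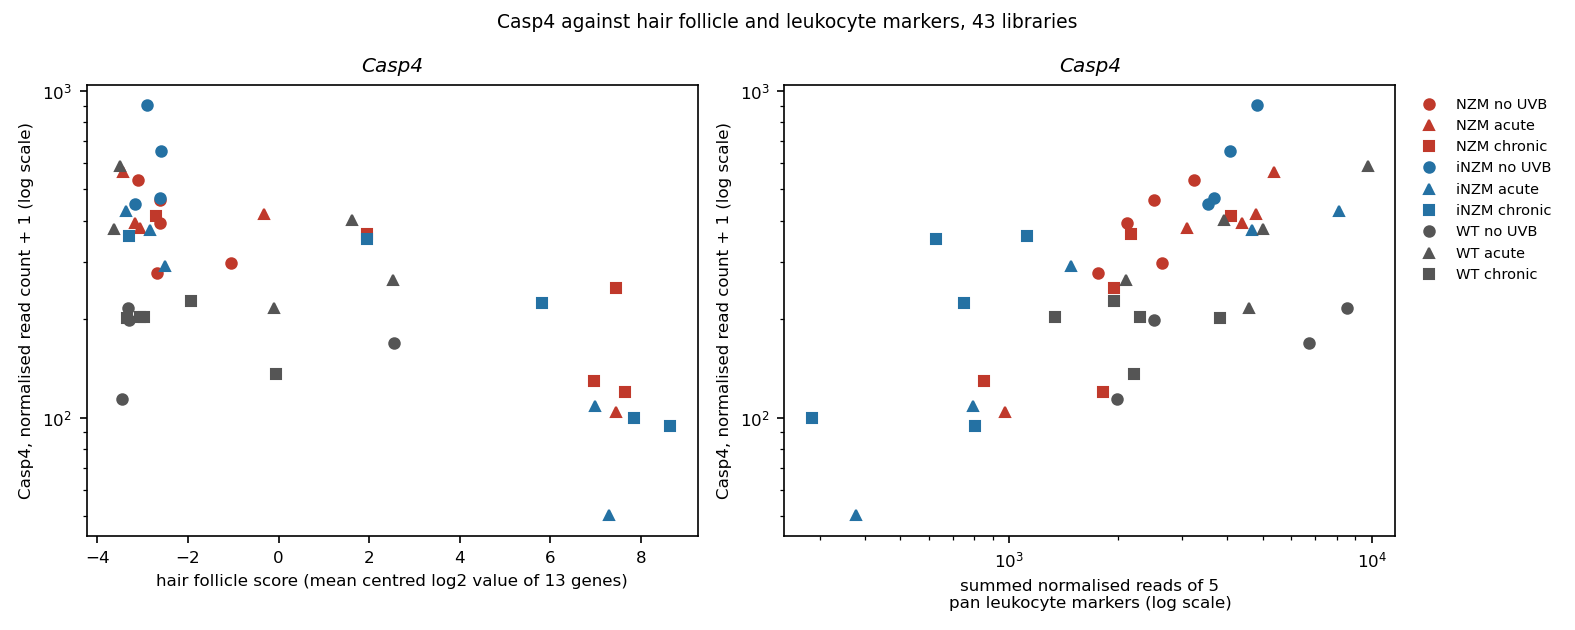
Casp4, normalised read count + 1 on a log scale, against the hair follicle score (left, mean centred log2 value of 13 genes) and against the summed reads of 5 pan leukocyte markers (right, log scale), 1 point per library with the symbols of the other plots. The 9 libraries with a score above 4 hold the lowest NZM and iNZM values, between 49.1 and 248.5 normalised reads.

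For each of the 8, up to 3 genes with the most similar pattern over the 43 libraries are given, among 11791 genes with a mean of at least 100. Nlrp3 was closest to Il1b (r = 0.83), Ccr1 (0.83) and Snx20 (0.81). Nlrp10 was closest to Chd3os (0.97), Ankrd35 (0.96) and Pou2f3 (0.96), and Il18 to Cpa4 (0.97), Lce1e (0.97) and Lce1f (0.96). Pycard was close to Lce1k (0.92) and Phgdh (0.92), and Casp1, with the weakest matches, to Ctsa (0.78), Rptn (0.76) and Rbp2 (0.75). Casp4 was closest to Birc3 (0.84), Irak3 (0.84) and Cxcl16 (0.84). Ripk3 was closest to Timp1 (0.92), Smim3 (0.90) and Ier5l (0.89), and Mlkl to Ms4a4a (0.88), Clec4d (0.87) and Akr1b8 (0.86). For deviations from group means these correlations were between 0.60 and 0.92. Within the 8, Nlrp10 and Il18 were closest (0.89, and 0.82 for deviations).

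Other genes of these pathways were read from 4 lists. Of 18 tested inflammasome sensors and regulators, 2 rose and 1 fell after acute UVB in NZM, 2 and 2 in iNZM, and 3 and 1 in WT. These counts stand against 10.6% and 10.7% of all genes in NZM, 12.8% and 12.4% in iNZM, and 10.4% and 11.3% in WT called higher and lower. The list medians were 0.30, -0.31 and 0.08. Over all genes the medians were 0.02, 0.00 and 0.00. The pyrin gene Mefv and the neutrophil-expressed Nlrp12 rose in NZM (3.67 ± 0.85, adjusted p = 0.00174, and 3.41 ± 0.87, 0.00396) and in WT (3.14 ± 0.91, 0.00994, and 3.23 ± 0.92, 0.00883). The Mefv call in WT was lost without unexposed WT 41 (2.51, 0.0621). Txnip, whose product binds thioredoxin and NLRP3, fell in NZM (-1.77 ± 0.35, 0.000257) and iNZM (-1.70 ± 0.37, 0.000748).

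After chronic UVB the same 18 showed 1 higher and 3 lower in NZM, 1 and 5 in iNZM and 1 and 5 in WT, against 9.2% and 9.78% of all genes in NZM, 13.1% and 15.7% in iNZM, and 18.4% and 16.8% in WT. The list had medians of 0.02, -0.59 and -0.27 beside all-gene medians of 0.04, 0.02 and 0.03. The DNA sensor Aim2 rose in NZM (1.54 ± 0.41, adjusted p = 0.00885), from 61.3 ± 12.6 to 184 ± 53.3 normalised reads (SD, n = 5). Dpp8, a restraint on NLRP1, fell in WT (-0.63 ± 0.11, 3.11e-05). It was also called in NZM, where it was lower, and in iNZM. Txnip was called lower after chronic UVB in all 3 strains, and each of these calls was lost in some alternatives. Nlrp1b was lower in NZM than in WT at all 3 regimens, with log2 differences of -3.71 ± 0.80 without UVB, -2.83 ± 0.75 after acute and -2.94 ± 0.75 after chronic UVB (0.00107, 0.0085 and 0.00942). Nlrp1a was higher in NZM after acute (3.49 ± 0.77, 0.00153) and chronic UVB (3.01 ± 0.77, 0.00963), and was not called without UVB. Within WT, Nlrp1a fell after acute UVB, with a log2 difference between -3.71 and -1.35 over 19 alternatives, all of them called. Nlrp1a and Nlrp1b are close paralogs, so reads could be split between them by the counting, and the chronic Nlrp1a call was lost when only the compared groups were fitted (0.0568).

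Of 12 genes of the interleukin 1 and 18 axis and pore formers, 2 rose and 2 fell after acute UVB in NZM, 0 and 4 in iNZM, and 3 and 4 in WT, against 10.6% and 10.7% of all genes in NZM, 12.8% and 12.4% in iNZM, and 10.4% and 11.3% in WT. The list medians were 0.35, -0.10 and 0.30. Il18r1, the ligand-binding chain of the interleukin 18 receptor, fell in all 3 strains, with log2 differences of -1.23 ± 0.39 in NZM (adjusted p = 0.0209), -1.93 ± 0.42 in iNZM (0.000717) and -1.97 ± 0.42 in WT (0.0005). After chronic UVB they were -1.83 ± 0.39, -2.56 ± 0.42 and -1.82 ± 0.42 (0.00151, 6.16e-05 and 0.000925). The acute NZM call was lost without NZM acute UVB 5 (-1.005, 0.0736) or unexposed NZM 32 (-1.06, 0.0702), and the chronic NZM call without the hair-high libraries (-1.03, 0.143). Il1b, the other cytokine that caspase 1 matures, rose after acute UVB in WT from 24.8 ± 26.1 (SD, n = 4) to 902 ± 498 normalised reads (n = 5; 5.66 ± 0.91, 1.26e-05) and in NZM from 49.4 ± 14.5 to 581 ± 556 (n = 5 each; 2.88 ± 0.86, 0.0134). The NZM call was lost without NZM acute UVB 1 (2.36, 0.0625). After chronic UVB the list held 0 higher and 2 lower in NZM, 0 and 6 in iNZM and 1 and 3 in WT, against 9.2% and 9.78% of all genes in NZM, 13.1% and 15.7% in iNZM, and 18.4% and 16.8% in WT, with medians of -0.12, -0.93 and -0.22.

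Of 14 genes of necroptosis and TNF receptor signalling, 0 were higher and 2 lower after acute UVB in NZM, 0 and 2 in iNZM, and 1 and 0 in WT, against 10.6% and 10.7% of all genes in NZM, 12.8% and 12.4% in iNZM, and 10.4% and 11.3% in WT. The list had medians of 0.01, -0.17 and 0.09. After chronic UVB there were 0 and 2 in NZM, 0 and 7 in iNZM and 2 and 0 in WT, against 9.2% and 9.78% of all genes in NZM, 13.1% and 15.7% in iNZM, and 18.4% and 16.8% in WT, with medians of -0.34, -0.45 and -0.06. Casp8, the protease that restrains necroptosis, rose in chronic WT skin from 699 ± 103 (SD, n = 4) to 1146 ± 85.2 (n = 5; 0.72 ± 0.16, adjusted p = 0.000624). Its chronic response in NZM was lower than in WT (-0.88 ± 0.22, 0.013). Zbp1, a nucleic acid sensor that activates RIPK3 and is interferon-induced, fell after chronic UVB in iNZM from 58.1 ± 20.3 (n = 4) to 4.21 ± 3.48 (n = 5; -3.79 ± 0.76, 0.000639). It was lower there than in chronic NZM skin (147 ± 125, n = 5; -4.73 ± 0.72, 0.000194), a call lost when only the compared groups were fitted (0.0806).

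Of 19 apoptosis genes, 6 rose and none fell after acute UVB in NZM, 4 and 1 in iNZM, and 5 and 2 in WT, against 10.6% and 10.7% of all genes in NZM, 12.8% and 12.4% in iNZM, and 10.4% and 11.3% in WT, with medians of 0.05, 0.03 and 0.41. Bax, which permeabilises mitochondria, rose by 1.00 ± 0.16 in NZM (adjusted p = 2.79e-05), 1.09 ± 0.17 in iNZM (2.06e-05) and 1.80 ± 0.17 in WT (2.03e-09). Pmaip1, which encodes the BH3-only protein NOXA, rose by 2.05 ± 0.25, 1.31 ± 0.26 and 2.93 ± 0.26 (2.07e-07, 0.000308 and 5.82e-10). After chronic UVB the list held 3 higher and 0 lower in NZM, 2 and 4 in iNZM and 4 and 2 in WT, against 9.2% and 9.78% of all genes in NZM, 13.1% and 15.7% in iNZM, and 18.4% and 16.8% in WT, with medians of 0.02, -0.14 and 0.21. Bax was higher in all 3 strains (0.76 ± 0.16, 0.79 ± 0.17 and 0.95 ± 0.17, adjusted p = 0.00176, 0.00151 and 7.23e-05), the NZM call being lost without the hair-high libraries (0.61, 0.117).

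**Figure D5:**
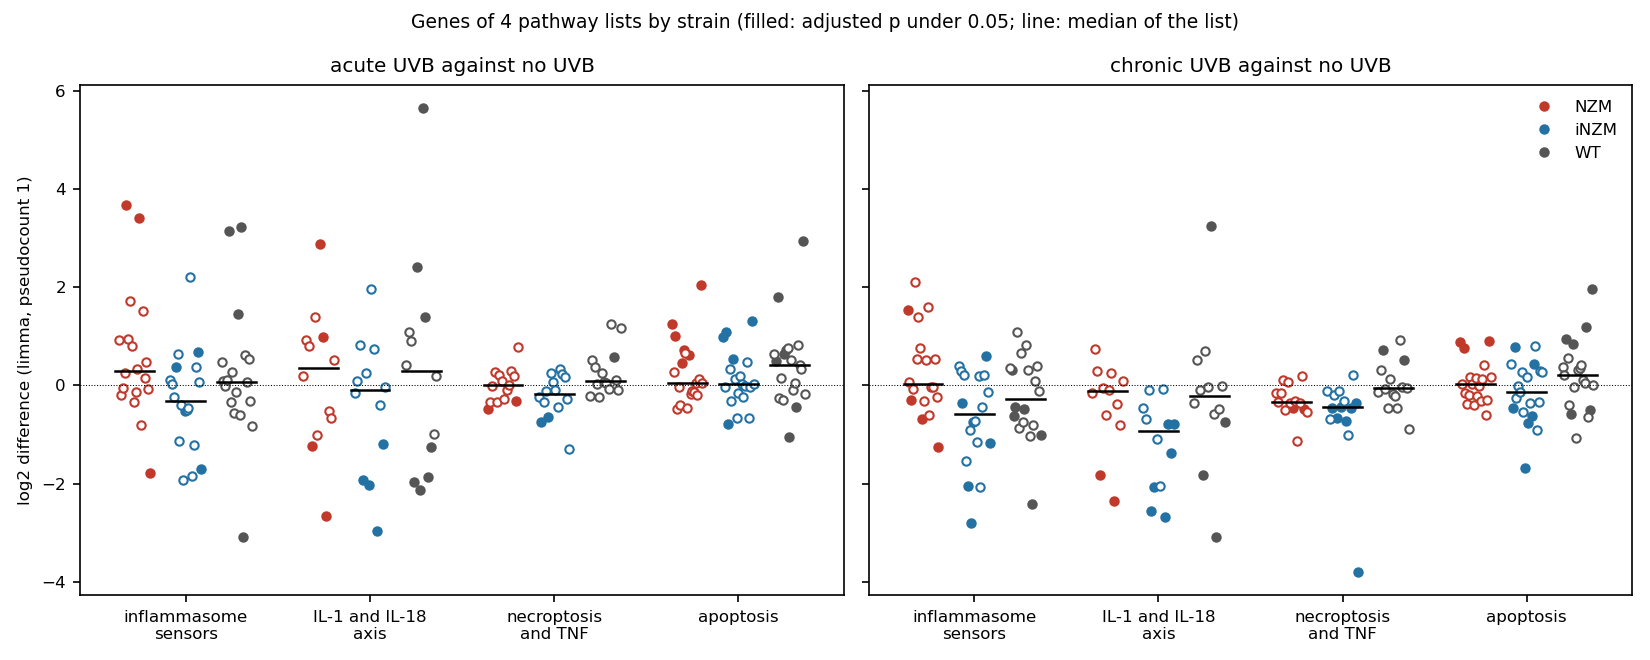
Log2 difference (limma on value + 1) between exposed and unexposed skin for each tested gene of the 4 pathway lists, for acute (left) and chronic UVB (right), in NZM (red), iNZM (blue) and WT (grey); filled points have an adjusted p under 0.05 and lines are list medians. The medians lie between -0.93 and 0.41, and the highest point is Il1b in acutely exposed WT skin at 5.66.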

How the data were processed

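Poly-A RNA of 43 back-skin samples was sequenced as paired 151-base reads. The submitters' processing notes name STAR, HTSeq, DESeq2 and the mm10 build, without versions. The deposited table of the authors holds a signal per gene, namely read counts divided by a size factor per sample; multiplying back gave whole reads for 100% of values, to within 0.01 of a read. All later steps were done for this text with Python 3.11.15, pandas 2.3.3, matplotlib 3.10.9 and R 4.3.3. Samples were grouped by strain and regimen from their titles. Genes that reached 10 in 4 or more samples were tested with limma 3.58.1 (trend) on log2(value + 1), as 9 group means over 43 samples, two-sided, with Benjamini-Hochberg adjustment and a threshold of 0.05. A fold change on this scale understates the change of low genes. edgeR 4.0.16 and DESeq2 1.42.0 were run on the recovered reads as alternatives. Other alternatives changed the pseudocount (0.5, 8), the filter (none, 50), the scaling (TMM), the groups fitted, a covariate for sample numbers from 46 on, and left out each library in turn. The fit without 9 libraries high in hair follicle genes was added after seeing the data. The fit was also run on simulated counts with a fixed dispersion of 0.05, in which only genes with a mean over 50 were changed. That setting does not cover genes as low and scattered as Nlrp3. The 8 genes are named in all comparisons, and from each pathway list up to 4 genes per comparison described, by smallest adjusted p, together with the 3 most similar genes of each member, 1 of which is not reported here. The members and lists were chosen with earlier results of these data known. Counting error, depth and the spread between libraries limit the precision.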

Additional observations from a re-analysis of the deposited data

Results flagged for a closer look

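In 6 of the 72 gene-by-group sets of 4 or 5 libraries, the highest or lowest library stood apart from the rest by Dixon's criterion at 95%, which chance alone does in about 1 of 20 sets. For Nlrp3 these were the highest libraries, with 21.3 normalised reads in unexposed NZM 35, 219.6 in NZM acute UVB 1 and 242 in iNZM acute UVB 10. For Casp1 it was the lowest library of the chronic NZM group, 55, with 452 normalised reads. For Casp4 it was the lowest of the chronic WT group, 58, with 135. For Mlkl it was the lowest of the unexposed iNZM group, 38, with 78.8.

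The chronic response of Pycard differed between NZM and WT by -1.61 on the log2 scale in a test of the difference itself (limma, adjusted p = 0.00567). The WT response was 1.55 and the NZM response -0.06. NZM minus WT was 0.89 without UVB, which was called, and -0.72 after chronic UVB, which was not. Both enter the difference of responses, so it rests in part on the lower Pycard of unexposed WT skin. The summed value of 4 basal keratinocyte markers ranged from 138947 to 263233 in unexposed and 374503 to 524845 in chronic WT libraries, and from 301952 to 615636 and 199123 to 362989 in NZM. Its part in the difference was not tested.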

How the results depend on the processing

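No paired analysis was possible because the sample numbers in the titles are all different between groups. Over 10 alternatives other than leaving out a library, 161 of 170 counts of called members stayed within 1.5 times the reported count. The others were as follows. After chronic UVB in NZM the count went from 1 to 0 with a pseudocount of 8, with no filter, with the sample number covariate, with edgeR and without the hair-high libraries. For NZM against WT without UVB it went from 1 to 3 when only the compared groups were fitted and without the hair-high libraries, none of which is in these groups. For NZM against WT after chronic UVB it went from 0 to 1 when only the compared groups were fitted and to 2 with DESeq2. When 1 library was left out at a time, the counts ranged from 0 to 1 for chronic NZM, from 1 to 2 for chronic iNZM, and for NZM against WT from 0 to 1 without UVB, 0 to 3 after acute and 0 to 1 after chronic UVB. Alternatives were run for 24 uncalled differences of the 8 genes. Those that changed sign were Casp4 after acute UVB in NZM (0.19 without the hair-high libraries, -0.42 to 0.19 leaving out 1 library), Nlrp10 after chronic UVB in NZM (0.16 without the hair-high libraries) and Nlrp3 after acute UVB in iNZM. The last was 0.18 with a pseudocount of 8, 1.48 with edgeR, 1.48 with DESeq2, 1.39 without the hair-high libraries and -0.99 to 0.50 leaving out 1 library. Pycard after chronic UVB in NZM was 0.13 with the sample number covariate, 0.27 without the hair-high libraries and -0.19 to 0.13 leaving out 1 library. Il18 after chronic UVB was -0.13 to 0.61 in NZM and -0.077 to 0.49 in iNZM leaving out 1 library. Of the 35 called differences of the 8 genes, none changed sign over 831 alternative values, 51 of which missed the threshold. The cause of these changes was not tested. The number of all genes called also moved by over 1.5 times. When only the compared groups were fitted, it went from 4833 to 3102 for acute UVB in iNZM, 5533 to 3003 for chronic UVB in iNZM, 6 to 16, 43 to 1 and 82 to 4 for iNZM against NZM (no, acute, chronic UVB), 22 to 50 and 1454 to 2187 for the acute and chronic responses of NZM minus WT, and 1 to 0 and 0 to 391 for those of iNZM minus NZM. Without the hair-high libraries it went from 3638 to 1006 for chronic UVB in NZM, 2868 to 4342 for NZM against WT without UVB, 6 to 17, 43 to 27 and 82 to 26 for iNZM against NZM, 22 to 79 for the acute response of NZM minus WT, and 1 to 0 and 0 to 4 for the responses of iNZM minus NZM. With DESeq2 it was 81 and 222 for iNZM against NZM (no and chronic UVB), 207 and 2530 for the responses of NZM minus WT, and 5 and 379 for those of iNZM minus NZM. With edgeR it was 48 for iNZM against NZM after chronic UVB, 9 for the acute response of NZM minus WT and 0 for that of iNZM minus NZM. A pseudocount of 8 gave 36 and 70 for the first pair of these, and the filter at 50 gave 0 for the last. Leaving out 1 library moved these counts by over 1.5 times as well. Chronic UVB in NZM went from 3638 to 2155, 2066 and 1890 without NZM chronic UVB 17, 55 and 56. Chronic UVB in iNZM went from 5533 to 3359 without iNZM chronic UVB 24, and to 3680 and 3647 without unexposed iNZM 39 and 40. NZM against WT went from 2868 to 1662 without UVB (without unexposed WT 45) and from 1511 to 995 after chronic UVB (without NZM 56). The chronic response of NZM minus WT went from 1454 to between 608 (without unexposed WT 45) and 933 (without unexposed NZM 34) for 5 libraries, the others being NZM chronic UVB 55 and 56 and WT chronic UVB 29, and the acute one from 22 to 41 (without WT acute UVB 52) and 13 (without unexposed WT 45). For iNZM against NZM the counts reached down to 2 without UVB (without unexposed iNZM 40) and 21 after acute UVB (without NZM 47), and after chronic UVB from 20 (without NZM 54) to 319 (without iNZM 23). The acute response of iNZM minus NZM went from 1 to 0 for 9 libraries, and the chronic one from 0 to as many as 267 (without iNZM 23). Depth limits Nlrp3 most, with 0 reads in 2 libraries.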
